A study of Mus musculus with 7 samples.

Results

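The genes described here encode the proteasome: its core and regulatory subunits, its activators and inhibitor, and its assembly chaperones. They were taken from the deposited TPM table as the protein-coding genes whose symbol is Psma, Psmb, Psmc, Psmd, Psme, Psmf or Psmg followed by a digit. Of 51 such genes, 49 reached at least 1 TPM in at least 3 samples, out of 13798 genes that did so and 55357 in the table. TPM corrects for gene length and gives every library an equal total. Psma8, the testis form of an alpha subunit, and Psmb11, the thymic catalytic subunit, did not pass, at 0 to 0.56 TPM and 0 to 0.14 TPM. Psmc3ip, a recombination cofactor, and Psme3ip1, a protein that binds an activator, match by symbol and are not proteasome subunits.

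The libraries were made by poly(A) selection from T cells sorted by flow cytometry as live, CD45+ and CD8+ from subcutaneous MCA205 tumours, a transplanted mouse fibrosarcoma, 14 days after implantation. The hosts were ENT1KO mice (Slc29a1-/-), which lack the nucleoside transporter ENT1 (4 samples, replicates 11, 12, 14 and 15), or C57Bl/6 WT mice (3 samples, replicates 1, 2 and 3). Both host genotypes received the same tumour line, and the labels differ only in host genotype and give neither age nor sex. The labels do not say whether the samples came from separate animals, and each p-value is set against the spread among these 7 libraries, which may be technical.

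Proteasomes degrade proteins that carry ubiquitin chains. In the 20S core, rings of alpha subunits gate the chamber and rings of beta subunits hold the caspase-like, trypsin-like and chymotrypsin-like sites, formed by Psmb6, Psmb7 and Psmb5. Interferon-gamma induces the replacements Psmb9, Psmb10 and Psmb8, which give the immunoproteasome, a form abundant in lymphocytes that favours peptides suited to MHC class I. The 19S particle, made of ATPases and non-ATPase subunits, recognises, unfolds and feeds substrates, and the PA28 activators Psme1 and Psme2, also interferon-inducible, cap the core in its place.

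The Slc29a1 transcript itself lay between 13.2 and 17.6 TPM in the ENT1KO libraries and between 49.7 and 58.9 TPM in the WT libraries. Each library held 18624318 to 19660792 gene-assigned reads. The 14 CD8 T cell identity genes, such as Trac and Cd3g, summed to 9219 to 11332 TPM in ENT1KO and 2891 to 6989.5 TPM in WT. The 14 macrophage genes, of which Lyz2 and Apoe were the most abundant, summed to 119 to 1340 TPM in ENT1KO (replicate 14 the highest) and 3574 to 5352 TPM in WT. The 15 fibroblast and tumour genes, led by Postn and Col3a1, summed to 7.12 to 873 TPM in ENT1KO, again highest in replicate 14, and 4176 to 7927 TPM in WT. All 14 T cell genes rose and all 14 macrophage and 15 fibroblast and tumour genes fell in limma-trend, and no gene of these 3 lists was at 0 in all libraries. Of the dendritic cell genes 5 of 8 tested fell, of the neutrophil genes 4 of 4 fell, and the 1 B cell gene tested rose. Every cell type makes proteasomes, and these differences in marker levels stand beside every result below. Their part in the results cannot be told apart from genotype. The T cell sums, the macrophage sums and the fibroblast and tumour sums did not overlap between genotypes. In such bulk libraries fewer cells of a type and less RNA per cell cannot be told apart.

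Promoter sequence was at hand for 42 of the 49 genes (RefSeq, GRCm38.p6, 250 bases before to 50 bases after the start site). The windows of Psmb9, Psmb8 and Psme1, whose transcripts rose in ENT1KO, and of Psmb5 and Psmb6, the constitutive partners of Psmb8 and Psmb9, are shown because these genes carry the contrast described below. Capitals mark matches, on either strand, to 3 patterns that were searched: TGACNNNGC, the core of the antioxidant response element bound by NRF factors, an interferon regulatory factor element (GAAA, any 2 bases, GAAA), and TTCNNNGAA, the palindrome of STAT factors.
Psmb9 (chr17:34187281-34187580, minus strand): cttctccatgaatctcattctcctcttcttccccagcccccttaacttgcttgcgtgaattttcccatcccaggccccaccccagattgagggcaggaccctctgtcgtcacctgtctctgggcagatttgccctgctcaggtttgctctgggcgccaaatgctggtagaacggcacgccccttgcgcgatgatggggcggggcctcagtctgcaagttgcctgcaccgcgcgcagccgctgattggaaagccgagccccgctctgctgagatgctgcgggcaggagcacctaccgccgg
Psmb8 (chr17:34197945-34198244, plus strand): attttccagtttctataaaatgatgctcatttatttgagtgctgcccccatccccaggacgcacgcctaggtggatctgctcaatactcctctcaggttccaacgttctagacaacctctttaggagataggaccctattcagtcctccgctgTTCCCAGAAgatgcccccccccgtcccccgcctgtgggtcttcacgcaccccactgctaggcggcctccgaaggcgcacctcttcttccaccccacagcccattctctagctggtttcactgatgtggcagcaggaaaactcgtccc
Psme1 (chr14:55578244-55578543, plus strand): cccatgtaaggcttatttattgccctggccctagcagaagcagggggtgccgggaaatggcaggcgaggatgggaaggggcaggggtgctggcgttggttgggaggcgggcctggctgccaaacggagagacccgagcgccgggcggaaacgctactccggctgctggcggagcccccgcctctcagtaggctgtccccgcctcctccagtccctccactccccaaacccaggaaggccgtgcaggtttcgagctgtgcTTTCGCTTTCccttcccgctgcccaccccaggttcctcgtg
Psmb6 (chr11:70525107-70525406, plus strand): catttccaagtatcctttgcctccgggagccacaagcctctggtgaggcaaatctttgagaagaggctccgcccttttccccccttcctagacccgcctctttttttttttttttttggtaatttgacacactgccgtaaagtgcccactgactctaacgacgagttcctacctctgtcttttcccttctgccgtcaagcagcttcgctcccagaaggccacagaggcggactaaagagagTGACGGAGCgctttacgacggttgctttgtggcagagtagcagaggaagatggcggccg
Psmb5 (chr14:54617946-54618245, minus strand): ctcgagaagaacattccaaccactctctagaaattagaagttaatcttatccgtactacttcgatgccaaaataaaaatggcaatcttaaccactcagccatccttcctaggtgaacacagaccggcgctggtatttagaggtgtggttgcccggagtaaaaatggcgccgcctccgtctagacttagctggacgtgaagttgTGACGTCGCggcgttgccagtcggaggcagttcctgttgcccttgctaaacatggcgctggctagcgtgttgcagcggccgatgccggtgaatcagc
The Psmb5 match to TGACNNNGC begins 47 bases before the start site and the Psmb6 match 9 bases before it. Psmb8 holds a TTCNNNGAA match 97 bases before the start site, and Psme1 a match to the interferon regulatory factor element, on the opposite strand, that begins 9 bases after it. The Psmb9 window holds none of the 3 patterns.
Among the 42 genes, 6 held TGACNNNGC (14.3%, against 12.4% of all 32851 promoter windows), 5 held the interferon regulatory factor element (11.9%, against 3.44%) and 3 held TTCNNNGAA (7.14%, against 8.30%). Matches to the interferon regulatory factor element lay in Psmb3, Psmd4, Psmd9, Psme1 and Psmg4, of which only Psme1 changed in ENT1KO by limma-trend on TPM. On the deposited normalized counts Psme1 did not pass (limma adjusted p = 0.0691) and Psmd9 fell (limma adjusted p = 0.00887). After quantile normalization Psme1 rose, and Psmd4 and Psmd9 fell. Matches of this kind describe letters in a window and do not show binding.

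The 49 genes spanned 10.8 TPM (Psmc3ip) to 569 TPM (Psme2) as means over the 7 libraries. Core alpha subunits lay between 121 TPM (Psma2) and 256 TPM (Psma7), and the non-catalytic beta subunits between 151 and 227 TPM. The 19S ATPases lay between 91.2 TPM (Psmc2) and 167 TPM (Psmc3), and the non-ATPase subunits between 66.8 TPM (Psmd11) and 147 TPM (Psmd8). Assembly chaperones were lower than any of these subunits, between 16.7 TPM (Psmg3) and 32.6 TPM (Psmg2). Transcript levels of genes whose products enter the core in equal numbers thus differed by 2.12 times within the alpha ring and by 1.501 times within the non-catalytic beta subunits. Psmb8, Psme1 and Psme2 stood above all other members, and the ratio of highest to lowest level was 3.61 within the 3 immune catalytic subunits.

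**Figure D1:**
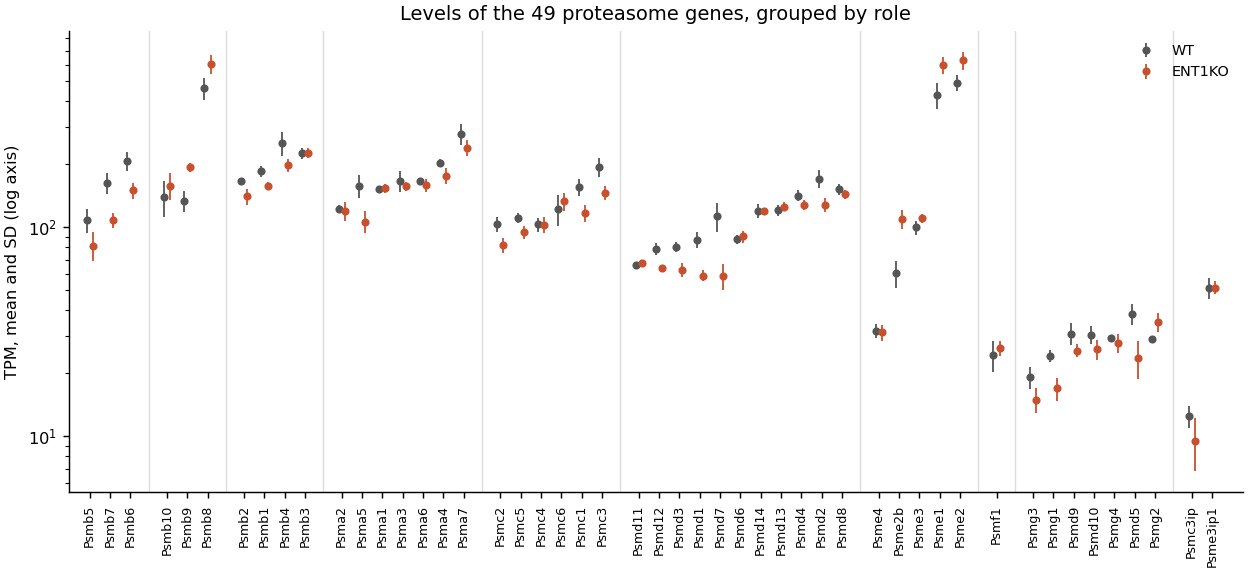
Mean level of each of the 49 genes in TPM (log axis), with the SD over 3 WT (grey) and 4 ENT1KO (orange) libraries, grouped by role and ordered by level within a role. Psmb8, Psme1 and Psme2 are the highest members, and the assembly chaperones lie at 16.7 to 32.6 TPM as means over all libraries.

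The comparison of genotypes sets the proteasome transcripts of libraries from ENT1KO hosts against those of libraries from WT hosts. These libraries also held transcripts of other cell types at levels that differed between genotypes. The comparison therefore cannot assign a difference to the T cells. On the TPM scale several interferon-inducible subunits rose and many standard subunits fell, while relative to the CD8 T cell identity genes all 49 differences were negative. In limma-trend on log2(TPM + 1), with Benjamini-Hochberg adjustment over all 13798 genes, 5 of the 49 genes rose (Psmb8, Psmb9, Psme1, Psme2 and Psme2b) and 14 fell. Over all tested genes 27.5% rose and 23.1% fell. The median log2 difference, ENT1KO minus WT, was -0.15 over the 49 genes and 0.15 over all tested genes, and 42 of the 49 lay below the median of all genes. On the deposited normalized counts, where the median of all genes is 0, 2 rose (Psmb9 and Psme2b) and 22 fell, and over all tested genes 21% rose and 28% fell. By the adjusted p in the authors' deposited table, of the 49 genes 2 were higher and 22 lower (under 0.05), against 16.5% and 25.8% of its 18878 tested genes. Subtraction of the mean of the CD8 T cell identity genes shifts every gene alike and moves the median of all genes to -1.01. After it none of the 49 rose and 47 fell, against 0.181% and 64.5% of all tested genes. The p-values of this fit are too small. On normalized counts and after quantile normalization, the 5 genes called higher on TPM lay above the median of all genes. The 14 called lower on TPM lay below it on both scales. Of the 5, Psme2 (0.0047) and Psmb8 (0.02) were closest to it after quantile normalization. On TPM the 5 also lay above it, while the 14 lay below it by their selection, because that median is positive (0.15). The subtraction leaves every position relative to the median unchanged, so it adds no further check. With the macrophage list or the fibroblast and tumour list as a covariate in limma, none of the 49 passed, and 1 was higher and 1 lower at an unadjusted p under 0.05. In either of these fits 0.00725% of all tested genes rose and 0.0145% fell, and the SE of the 19 called genes was larger, by a median factor of 2.10 with the macrophage covariate and 2.04 with the other. All 19 differences kept their sign, and 14 of them stayed within 1.5 times their size in each fit. The sums of both lists did not overlap between genotypes, so these fits cannot tell genotype and marker level apart. With the macrophage covariate 4 of the 19 grew in size, Psmd5 to -0.73, Psmc3 to -0.43, Psmg1 to -0.55 and Psme2 to 0.39. The others shrank, and the median of the 19 was 79.1% of the size without the covariate. Among those that shrank, Psmb9 was at 0.44, Psmd7 at -0.75, Psmb7 at -0.36, Psmd2 at -0.21 and Psme2b at 0.56. Psmb8, at 0.19, kept 50.1% of its size, the lowest share of the 19. Without WT replicate 1 or WT replicate 2, 2 genes rose, and 3 did so without ENT1KO replicate 14 or 15. Without ENT1KO replicate 11 and WT replicate 2, left out one at a time, 8 and 9 genes fell.

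**Figure D2:**
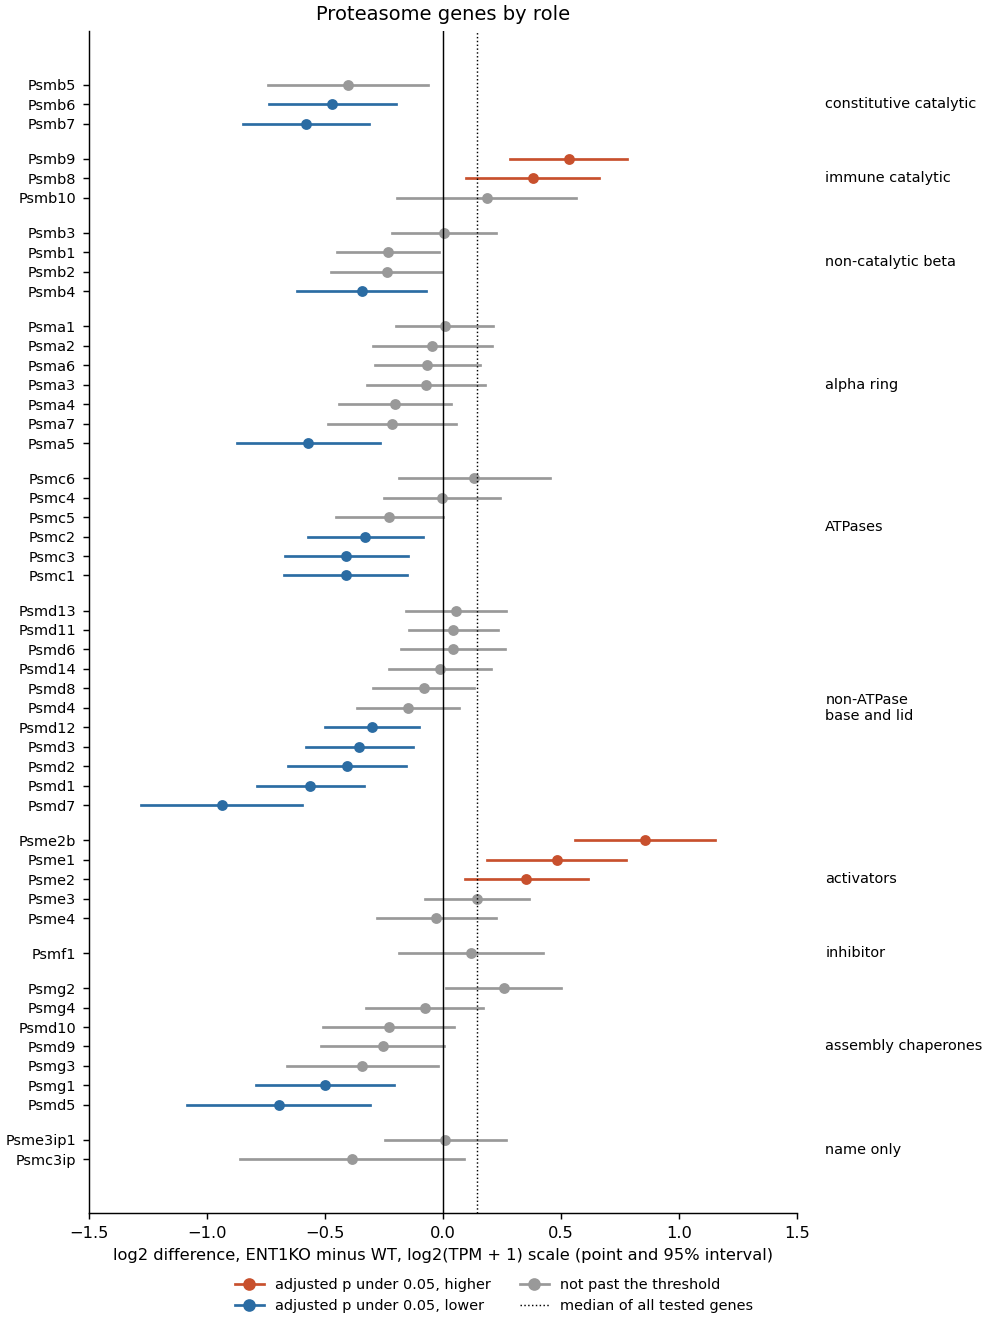
Log2 difference (ENT1KO minus WT, log2(TPM + 1) scale) of each gene with its 95% interval from limma-trend, grouped by role. Orange genes rose and blue genes fell at an adjusted p under 0.05, and the dotted line is the median of all tested genes (0.15).

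Of the 3 constitutive catalytic subunits 2 fell in ENT1KO on the TPM scale, against 23.1% of all tested genes. All ENT1KO libraries lay below all WT libraries in 24.9% of all tested genes. Psmb7, the trypsin-like subunit (chromosome 2, 38478048 to 38534099, GRCm39), measured 99.1 (replicate 11), 108 (12), 121 (14) and 104 TPM (15) in ENT1KO, against 157 (replicate 1), 183 (2) and 147 TPM (3) in WT. Later values follow this order. All ENT1KO libraries lay under all WT libraries, with means of 108 ± 9.46 (SD, n = 4) and 162 ± 18.7 TPM (SD, n = 3) and a log2 difference of -0.58 (SE 0.12, limma adjusted p = 0.00516). Psmb6, the caspase-like subunit (chromosome 11, 70416193 to 70418684), was at 135, 149, 168 and 147 TPM in ENT1KO and at 183, 225 and 216 TPM in WT. Its groups did not overlap either, and it fell by 0.47 on the log2 scale (SE 0.12, limma adjusted p = 0.0121). Psmb5, the chymotrypsin-like subunit (chromosome 14, 54851576 to 54855479), was at 71.2, 81.8, 99.7 and 73.5 TPM in ENT1KO and 91.8, 113 and 118 TPM in WT. Here ENT1KO replicate 14 lay above WT replicate 1, and the difference of -0.40 (SE 0.15) missed the threshold (limma adjusted p = 0.051). It passed on normalized counts (-0.59, limma adjusted p = 0.016), without ENT1KO replicate 14 (-0.50, limma adjusted p = 0.0193) and without WT replicate 1 (-0.51, limma adjusted p = 0.0364).

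Of the 3 immune catalytic subunits 2 rose in ENT1KO on the TPM scale, whereas none rose and 2 fell relative to the CD8 T cell identity genes. Over all tested genes 27.5% rose on TPM, and relative to those genes 0.181% rose and 64.5% fell. The p-values of the fit relative to the identity genes are too small. In it all 3 immune subunits lay above the median of all tested genes (-1.01). On TPM, ENT1KO was higher without overlap in 30.3% of all tested genes. Psmb9, the caspase-like site's interferon-inducible replacement (chromosome 17, 34400961 to 34406738), was at 181, 194, 196 and 204 TPM in ENT1KO and at 126, 124 and 152 TPM in WT. No ENT1KO library reached down to WT, and the log2 difference was 0.53 (SE 0.11, limma adjusted p = 0.00532). Psmb8, which replaces the chymotrypsin-like subunit (chromosome 17, 34416695 to 34420428), was at 534, 587, 611 and 679 TPM in ENT1KO and at 433, 429 and 528 TPM in WT. The lowest ENT1KO library lay just above WT replicate 3, and the log2 difference was 0.38 (SE 0.12, limma adjusted p = 0.0323). That call was lost without any one of ENT1KO replicates 12, 14 and 15 and WT replicates 1 and 2 (0.32 to 0.39, limma adjusted p between 0.0617 and 0.101). Psmb8 did not pass on normalized counts either (0.25, limma adjusted p = 0.141). Psmb10, the trypsin-like replacement (chromosome 8, 106662367 to 106665076), was at 132, 146, 183 and 172 TPM in ENT1KO and 116, 134 and 169 TPM in WT, with overlapping groups and a difference of 0.19 (SE 0.17, limma adjusted p = 0.37). Psmb9 and Psmb8 lie 9956 bases apart in the MHC region, 11.5 Mb from Slc29a1 on the same chromosome, and the span of Psmb9 overlaps that of Tap1. In the authors' deposited table, Psmb9 had a log2 fold change of 0.43 (adjusted p = 0.0004), Psmb8 of 0.25 (adjusted p = 0.164) and Psmb10 of 0.00 (adjusted p = 0.996).

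**Figure D3:**
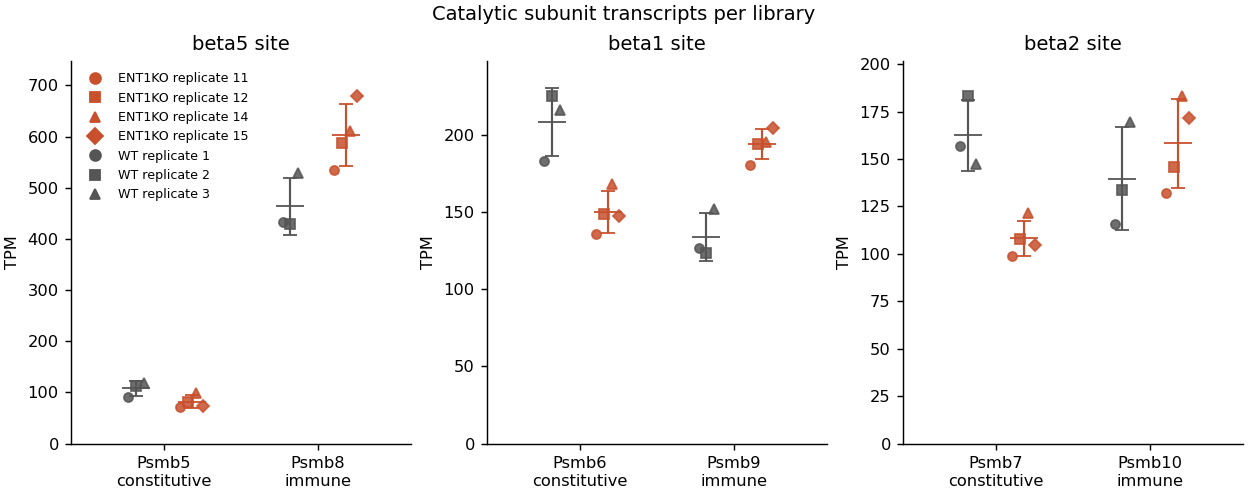
Level in TPM of the constitutive and immune subunit of each catalytic site in each library (points), with the mean and SD per genotype. Psmb6, Psmb7, Psmb8 and Psmb9 show no overlap between genotypes, while Psmb5 and Psmb10 overlap. Over all tested genes, ENT1KO was higher without overlap in 30.3% and lower in 24.9%.

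Within a library, the balance of each pair shifted toward the immune subunit in ENT1KO. Such a ratio is unaffected by a scaling factor applied to the whole library. Psmb9 was 1.33, 1.31, 1.16 and 1.39 times the level of Psmb6 in ENT1KO replicates 11, 12, 14 and 15, and 0.690, 0.549 and 0.704 times in WT replicates 1, 2 and 3. Psmb9 was thus the more abundant of the pair in each ENT1KO library and the less abundant in each WT library. The log2 ratio differed by 1.01 (SE 0.12), a factor of 2.01. Psmb8 was 7.50, 7.17, 6.12 and 9.25 times the level of Psmb5 in ENT1KO and 4.71, 3.797 and 4.47 times in WT, so that it exceeded Psmb5 in all 7 libraries. Its log2 ratio differed by 0.79 (SE 0.16). Psmb10 was 1.33, 1.35, 1.51 and 1.64 times the level of Psmb7 in ENT1KO and 0.738, 0.7301 and 1.15 times in WT, where only replicate 3 had more Psmb10 than Psmb7, and its log2 ratio differed by 0.77 (SE 0.20). For each of these 3 ratios the genotypes did not overlap, and a two-sided exact permutation test returned p = 0.0286, its minimum for 4 against 3 libraries (p = 0.0357 adjusted over 5 ratios). Single genes whose groups did not overlap made up 30.3% (ENT1KO higher) and 24.9% (ENT1KO lower) of all tested genes.

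Expressed as a share of the pair, Psmb8 was 88.0% ± 1.76 (SD, n = 4) of Psmb8 plus Psmb5 in ENT1KO and 81.1% ± 1.75 (SD, n = 3) in WT. Psmb9 was 56.4% ± 1.87 against 39.2% ± 3.27 of its pair, and Psmb10 was 59.3% ± 2.37 against 46.1% ± 6.44. Psmb9 and Psmb6 summed to 344 ± 20.2 TPM in ENT1KO against 342 ± 29.6 TPM in WT, and Psmb10 and Psmb7 to 266 ± 31.4 against 302 ± 25.6 TPM. Psmb8 and Psmb5 summed to 684 ± 63.1 TPM in ENT1KO against 571 ± 66.1 TPM in WT, and these sums were not tested. ENT1KO replicate 14, which held the most macrophage and fibroblast transcripts of its group, had the lowest ENT1KO ratio for Psmb8 to Psmb5 and Psmb9 to Psmb6, but not for Psmb10 to Psmb7. WT replicate 2, which held the most of them of all libraries, had the lowest value of all libraries in these 3 ratios. Whether marker levels and these ratios are related over the libraries was not tested.

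**Figure D4:**
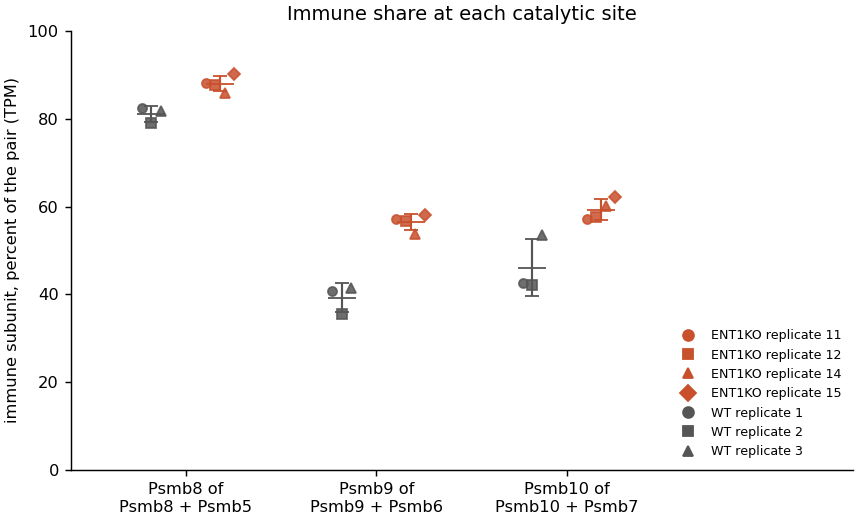
Share of the immune subunit in the summed TPM of each catalytic pair (percent), per library, with the mean and SD per genotype. At each site the 4 ENT1KO libraries lie above the 3 WT libraries, and for Psmb9 they lie between 53.8% and 58.1% against 35.4% to 41.3%.

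The interferon-inducible activators Psme1 and Psme2 rose in ENT1KO on the TPM scale and fell relative to the CD8 T cell identity genes, where Psme2b did not pass (-0.30, limma adjusted p = 0.399). Relative to those identity genes 64.5% of all tested genes fell, and the p-values of that fit are too small. Psme1 (-0.68) and Psme2 (-0.81) lay above the median of all tested genes in it (-1.01). Psme1, the PA28 alpha subunit (chromosome 14, 55815580 to 55818986), was at 542, 552, 644 and 648 TPM in ENT1KO and at 408, 379 and 498 TPM in WT, a difference of 0.48 (SE 0.13, limma adjusted p = 0.0157). Psme2, the PA28 beta subunit, whose gene lies 5.91 kb from Psme1, was at 610.1, 555, 696 and 650.3 TPM against 452, 484 and 536 TPM, a difference of 0.35 (SE 0.11, limma adjusted p = 0.031). For both genes the ENT1KO libraries all lay above WT, as they did for 30.3% of all tested genes. Of all tested genes 27.5% rose on TPM. The Psme1 call was lost without WT replicate 1 (0.45, limma adjusted p = 0.0521) or WT replicate 2 (0.40, limma adjusted p = 0.0547). On normalized counts it was also lost (0.31, limma adjusted p = 0.0691). The Psme2 call was lost without ENT1KO replicate 11, 14 or 15 or WT replicate 1 or 2 (0.30 to 0.37, limma adjusted p between 0.0618 and 0.103), with normalized counts (0.18, limma adjusted p = 0.225) and after quantile normalization (0.18, limma adjusted p = 0.188). Psme2b, a copy of Psme2 on chromosome 11 (48836181 to 48837017), was at 111, 98.1, 105 and 124 TPM in ENT1KO and 57.5, 53.0 and 70.2 TPM in WT, the largest rise among the 49 genes at 0.86 (SE 0.13, limma adjusted p = 0.002). Reads can be shared between Psme2 and this near-identical copy, and 2 other tested coding genes overlap its span, so the split between the copies is uncertain.

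The other activators and the inhibitor did not pass the test. Psme3, the nuclear PA28 gamma subunit, was at 113, 102, 115 and 111 TPM in ENT1KO and 96.0, 94.6 and 109 TPM in WT, with overlapping groups and a difference of 0.14 with a 95% interval from -0.08 to 0.37. Psme4, the large activator PA200, was at 27.9 to 33.8 TPM in ENT1KO and 29.2 to 34.0 TPM in WT. Psmf1, the inhibitor PI31, was at 24.3 to 28.6 TPM and 20.7 to 28.8 TPM. The ratio of Psme1 to Psme3 was 4.80, 5.39, 5.62 and 5.82 in ENT1KO and 4.25, 4.01 and 4.58 in WT (log2 difference 0.34, SE 0.09, exact permutation p = 0.0571, and the same value adjusted over 5 ratios). That of Psme2 to Psme3 was 5.40, 5.42, 6.07 and 5.84 against 4.71, 5.12 and 4.93 (0.21, SE 0.06, exact permutation p = 0.0286, 0.0357 adjusted over 5 ratios). On normalized counts the latter was 0.12. Neither ratio overlapped between genotypes.

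Of the 11 non-catalytic core subunits, 2 fell on the TPM scale, and 6 fell on normalized counts, after quantile normalization and in the authors' deposited table. None of the 11 rose in any of these. Over all tested genes 23.1% fell on TPM, 28% on normalized counts and 25.8% in the authors' deposited table. On TPM, all ENT1KO libraries lay below WT for 24.9% of all tested genes. In the alpha ring 1 of 7 fell on TPM, with a median of -0.07, and 3 on each of the other scales. The one was Psma5 (chromosome 3, 108164242 to 108187290), at 91.7, 103, 123 and 108 TPM in ENT1KO and 148, 181 and 146 TPM in WT, all ENT1KO libraries lying below WT (-0.57, SE 0.13, limma adjusted p = 0.00894). Psma1 stood at 143, 156, 162 and 154 TPM against 152, 149 and 158 TPM, and Psma2 at 104, 119.6, 134 and 119.8 TPM against 116, 125 and 127 TPM, both with overlapping groups. Psma7, the most abundant alpha subunit, was at 233, 219.9, 268 and 237 TPM against 242, 302 and 292 TPM (-0.22, limma adjusted p = 0.158). It fell on normalized counts (-0.39, limma adjusted p = 0.0439), as did Psma4 (-0.20 on TPM, -0.34 on normalized counts, limma adjusted p = 0.0446). The 95% interval of the Psma1 difference was -0.20 to 0.21 and did not reach the size of the Psma5 difference.

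Of the 4 non-catalytic beta subunits 1 fell on TPM and 3 on normalized counts, against 23.1% and 28% of all tested genes. On TPM, 24.9% of all tested genes were lower in ENT1KO without overlap. Psmb4 was at 186, 185, 216 and 204 TPM in ENT1KO and 222, 287 and 247 TPM in WT (-0.34, SE 0.12, limma adjusted p = 0.0412). The groups did not overlap, but the call was lost without ENT1KO replicate 11, 12 or 15 or WT replicate 2 or 3 (-0.36 to -0.25, limma adjusted p from 0.066 to 0.128). Psmb1 was lower in each ENT1KO library as well, at 149, 162, 155 and 163 TPM against 171, 192 and 192 TPM, and missed the threshold on TPM (-0.23, limma adjusted p = 0.0678) but passed on normalized counts (-0.37, limma adjusted p = 0.0268). Psmb2 was at 129.98, 134, 158 and 139 TPM against 158, 169.8 and 169 TPM (-0.24, limma adjusted p = 0.0818), and it too passed on normalized counts (-0.40, limma adjusted p = 0.0212). Psmb3 was at 210.4, 237, 237 and 225 TPM against 216, 222 and 242 TPM (0.00, 95% interval -0.22 to 0.22).

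Of the 6 ATPases that drive unfolding, 3 fell and none rose, against 23.1% and 27.5% of all tested genes. Psmc1 was at 109.8, 106, 130.1 and 122 TPM in ENT1KO and 143, 153 and 171 TPM in WT (-0.41, SE 0.11, limma adjusted p = 0.0179). Psmc3 was at 134, 138, 155 and 157 TPM against 171, 205 and 208 TPM (-0.41, SE 0.11, limma adjusted p = 0.0179). Psmc2, at 75.3, 78.3, 89.8 and 84.99 TPM against 94.0, 111 and 105 TPM, fell by 0.33 on the log2 scale (limma adjusted p = 0.0317). In all 3 the genotypes did not overlap, and ENT1KO was lower without overlap in 24.9% of all tested genes. Leaving out ENT1KO replicate 11 ended the calls of Psmc1 (-0.38, limma adjusted p = 0.0502) and Psmc3, which also lost its call without WT replicate 2 (both -0.37, limma adjusted p from 0.0508 to 0.0547). The Psmc2 call was lost without ENT1KO replicate 11, 12 or 15 or WT replicate 2 or 3 (-0.35 to -0.28, limma adjusted p from 0.0529 to 0.0941). Psmc5 lay lower in each ENT1KO library without passing on TPM (-0.23, limma adjusted p = 0.0867), and fell on normalized counts (-0.36, limma adjusted p = 0.0274). Psmc4 was at 94.1, 97.2, 114 and 107 TPM against 94.2, 106 and 109.6 TPM, and Psmc6 at 134, 115, 149 and 133 TPM against 145, 115 and 105 TPM, both with overlap between genotypes.

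The largest fall of all 49 genes was that of Psmd7. Psmd7 (chromosome 8, 108307013 to 108315096) encodes the lid subunit that pairs with the deubiquitinase Psmd14. Its transcript was at 48.6, 55.6, 68.4 and 60.4 TPM in ENT1KO and 105, 133 and 99.1 TPM in WT. Its ENT1KO mean of 58.3 ± 8.33 TPM (SD, n = 4) stood against 113 ± 18.1 TPM in WT (SD, n = 3), a difference of -0.94 (SE 0.15, limma adjusted p = 0.00233) that stayed between -1.02 and -0.81 when any one library was left out. Psmd14 itself was at 116, 114, 121 and 124 TPM against 129, 121 and 111 TPM, with overlapping groups and a 95% interval of -0.23 to 0.21. Psmd1, a scaffold of the 19S base, was at 56.6, 56.1, 64.1 and 58.0 TPM against 85.6, 95.04 and 80.8 TPM (-0.56, SE 0.10, limma adjusted p = 0.00325). Both Psmd7 and Psmd1 lay lower in every ENT1KO library than in any WT library, as did 24.9% of all tested genes.

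Of the 11 non-ATPase subunits 5 fell and none rose, against 23.1% and 27.5% of all tested genes. ENT1KO was lower without overlap in 24.9% of all tested genes. Besides Psmd7 and Psmd1 the 5 were the base scaffold Psmd2 (-0.41, limma adjusted p = 0.0159) and the lid subunits Psmd3 (-0.35, limma adjusted p = 0.0184) and Psmd12 (-0.30, limma adjusted p = 0.0213), all without overlap between genotypes. The Psmd3 call was lost without ENT1KO replicate 11 or WT replicate 2 (both -0.31, limma adjusted p from 0.0516 to 0.0548), and that of Psmd12 without ENT1KO replicate 11 or 12 or WT replicate 1 or 2 (-0.30 to -0.26, limma adjusted p from 0.0513 to 0.0662). Psmd12 was the least variable gene within ENT1KO, at 63.7, 62.7, 64.5 and 63.7 TPM. At the other end, Psmd13 was at 118, 127, 133 and 124 TPM in ENT1KO and 117, 116 and 129 TPM in WT, and Psmd11 at 66.0, 66.0, 69.2 and 69.8 TPM against 64.3, 66.3 and 66.3 TPM. The Psmd11 difference was 0.04 on TPM and -0.28 on normalized counts (limma adjusted p = 0.0293), and in the authors' deposited table its log2 fold change was -0.28 (adjusted p = 0.0273). Psmd4, a ubiquitin receptor (-0.15), Psmd6 (0.04) and Psmd8 (-0.08) did not pass. Summed over the 17 ATPase and non-ATPase subunits, the 19S level was 1629 to 1838 TPM in ENT1KO and 1942 to 2074 TPM in WT, and the 14 core subunits other than the immune ones summed to 2011 to 2380 and 2389 to 2696 TPM. Of these 31 subunits 12 fell and none rose, against 23.1% and 27.5% of all tested genes.

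Assembly chaperones, which build the particles and are not part of the finished enzyme, included 2 falls among 7 genes. Of all tested genes 23.1% fell, a share near this one. Psmd5, a chaperone of the 19S base, was at 19.5, 19.3, 27.9 and 27.8 TPM in ENT1KO and 34.0, 42.9 and 38.7 TPM in WT (-0.70, SE 0.17, limma adjusted p = 0.0108). Psmg1, which pairs with Psmg2 to start the alpha ring, was at 16.6, 14.0, 18.5 and 18.6 TPM against 22.4, 25.6 and 24.7 TPM (-0.50, SE 0.13, limma adjusted p = 0.0131). Neither overlapped between genotypes, and ENT1KO was lower without overlap in 24.9% of all tested genes. Psmg2 lay the other way, at 33.3, 31.3, 36.7 and 39.5 TPM in ENT1KO and 28.6, 29.6 and 29.4 TPM in WT, above WT in each library and short of the threshold (0.26, limma adjusted p = 0.0733). Psmg4, at 28.2, 25.9, 32.0 and 25.5 TPM against 28.7, 30.4 and 29.1 TPM, overlapped. Psmg3 (-0.34) and Psmd10 (-0.23) did not pass. Psmd9 lay below WT in every ENT1KO library. It missed the threshold on TPM (-0.26, limma adjusted p = 0.0922) and fell on normalized counts (-0.48, limma adjusted p = 0.00887), and its log2 fold change in the authors' deposited table was -0.48 (adjusted p = 0.00128).

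Of 22 further proteasome partners found in the table (of 23 listed), 2 rose and 7 fell, with a median of -0.11, where 27.5% of all tested genes rose and 23.1% fell. The transcription factor Nfe2l1, which raises proteasome gene expression when proteasome capacity is short, fell from 50.7 ± 7.45 to 30.9 ± 2.14 TPM (-0.69, limma adjusted p = 0.00307). Its deglycosylating activator Ngly1 rose from 23.5 ± 4.17 to 39.7 ± 3.22 TPM (0.74, limma adjusted p = 0.00397). The shuttle protein Ubqln2 (-0.73, limma adjusted p = 0.0033) and the proteasome-bound thioredoxin-like protein Txnl1 (-0.62, limma adjusted p = 0.00566) fell. Core maturation factor Pomp (329 ± 26.4 against 359.9 ± 4.24 TPM) and the ubiquitin receptor Adrm1 (69.9 ± 4.404 against 71.7 ± 1.02 TPM) did not pass, and both were named after their values were seen.

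The interferon-gamma and class I processing genes, many of them induced together with Psmb8, Psmb9, Psme1 and Psme2, were mostly higher in ENT1KO on the TPM scale. Of 21 genes 14 rose and 3 fell, against 27.5% and 23.1% of all tested genes. The 3 falls, named after their values were seen, were Ifngr2 (-1.42), Calr (-0.48) and Canx (-0.39). The median of the 21 genes, 0.60, lay below the 1.14 of the CD8 T cell identity genes. Relative to those, none of the 21 rose and 10 fell, against 0.181% and 64.5% of all tested genes, with p-values that are too small. Nlrc5, the class I transactivator, was at 316 ± 18.01 against 131 ± 43.9 TPM (1.32, limma adjusted p = 0.00294). The kinase Jak2 and the transcription factor Irf9 rose by 0.76 and 0.90. The peptide transporter genes Tap1 and Tap2, neighbours of Psmb9 and Psmb8 and named after their values were seen, rose by 0.61 and 0.72, against 0.53 and 0.38 for the immune subunits beside them.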

How the data were processed

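RNA-seq was measured in 4 ENT1KO and 3 WT samples from 75 ng of RNA, grouped by sample title. The authors deposited TPM per gene, which keep no depth. Tools listed without roles in the submitters' processing notes are RSEM, STAR 2.7.1a, DESeq, DESeq2 1.30.1 and Trimmomatic (0.35 and 0.38), with the build GRCm39. The second table holds normalized counts, a signal that the authors deposited per gene and sample, whose values fit gene counts divided by 1 factor per sample. Log2 fold changes, their p-values and a test score were deposited as well. All normalized counts were whole multiples of the smallest value in their column (tolerance 0.01), which gives the read totals, but for 2 WT columns the step lies too near 1 to prove whole reads, so no count test was run and no counting intervals are given. The number of samples limits the precision.

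Every gene that reached 1 TPM in 3 or more libraries was fitted with limma-trend (robust, limma 3.58.1, R 4.3.3) on log2(TPM + 1), adjusted over all 13798 genes. For low genes the pseudocount shrinks the difference. Ratios were compared with exact permutation tests (scipy 1.17.1). The scripts were tested on simulated data. Values in every sample are given for the catalytic subunits, for activators, and for the 2 highest and 2 lowest differences of each other role, with a few more where a result turns on them, and of related lists the 4 genes with the smallest p are named, apart from some items that are not reported here. The members and lists were chosen with earlier results of these data known. Figures used matplotlib 3.10.9. In the fit relative to the T cell identity genes, their common spread enters each gene, so its p-values are too small. GRCm39 coordinates are those of the deposited table.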

Additional observations from a re-analysis of the deposited data

How the results depend on the processing

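The 5 rises and 14 falls among the 49 genes became 2 and 22 on normalized counts, 2 and 22 in the authors' deposited test, 3 and 22 after quantile normalization, 0 and 47 relative to the CD8 T cell identity genes, and 0 and 0 with the macrophage or the fibroblast and tumour covariate. With either covariate all 19 called differences kept their sign and 14 stayed within 1.5 times their size, with larger SEs. Neither list sum overlapped between genotypes, so these fits cannot tell genotype and marker level apart. With 1 library left out the rises ranged from 2 to 5 and the falls from 8 to 18. Of the 19 called genes, 10 kept their call without any one library, and 16 kept it with the same sign on normalized counts. Filters, pseudocounts, array weights and protein-coding genes only kept both counts within 1.5 times. The Psme1 to Psme3 ratio passed on normalized counts (0.25, exact permutation p = 0.0286 adjusted over 5 ratios) and not on TPM. With 1 library left out the log2 ratio differences were 0.68 to 0.88 for Psmb8 to Psmb5, 0.89 to 1.07 for Psmb9 to Psmb6, 0.66 to 0.99 for Psmb10 to Psmb7, 0.29 to 0.39 for Psme1 to Psme3 and 0.18 to 0.24 for Psme2 to Psme3, where no test can reach the threshold. Psmd11 changed sign on normalized counts (-0.28) and in the authors' deposited test (-0.28), and it passed the threshold in both. The sign of 7 others changed there too, with no call on either scale. These were Psma1, Psmb3, Psmc6, Psmd6, Psmd13, Psme3ip1 and Psmf1, and Psmc6 was at -0.26 on normalized counts. The cause was not tested. Relative to the CD8 T cell identity genes, which lowers each difference by the same amount, the sign changed for Psmb8 (-0.78), Psmb9 (-0.63), Psmb10 (-0.97), Psme1 (-0.68), Psme2 (-0.81), Psme2b (-0.30), Psme3 (-1.01), Psma1 (-1.15), Psmb3 (-1.16), Psmc6 (-1.03), Psmd6 (-1.11), Psmd11 (-1.11), Psmd13 (-1.10), Psme3ip1 (-1.15), Psmf1 (-1.04) and Psmg2 (-0.90). No paired analysis was possible because the groups share no replicate number.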

Other observations

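Within a genotype the libraries differed as a block. ENT1KO replicate 14 had the highest level of its group for 32 of the 49 genes and replicate 11 the lowest for 32, while in WT replicate 1 was the lowest for 29 and replicates 2 and 3 were the highest for 21 and 22. The coefficient of variation over libraries had a median of 8.56% in ENT1KO and 8.59% in WT, and the most variable genes were Psmc3ip in ENT1KO (28.5%) and Psmb10 in WT (19.5%). The 49 genes together took 0.614% to 0.707% of the TPM of a library, and their summed level was 6581 ± 432 TPM in ENT1KO (SD, n = 4) and 6698 ± 338 TPM in WT (SD, n = 3).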
